A study of Mus musculus with 24 samples.

Results

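The genes described are the immediate-early transcription factor genes Egr1, Egr2, Fos, Fosl1, Fosl2, Jun, Junb, Jund and Myc together with Ier3, 10 genes picked by symbol from the probe-to-gene table of the array. Of these, 9 had a probe set paired with 1 gene, out of 22180 genes measured that way. Fosl1 shares its probe set with another gene and is not given as a gene below. Jund had 2 probe sets, and the one with the higher mean level was used.

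The samples were primary hepatocytes of male C57Bl6J mice, in 3 experiments that each pooled the cells of 3 mice. The cells carried 1 of 2 adenoviral short hairpins at a multiplicity of infection of 5, shFOXA2.3 against the forkhead factor FOXA2 or shlacZ against a bacterial gene that mouse cells lack. They were treated for 4 h with 100 nM glucagon or 1 nM insulin, together with 2 µM GW4064, an agonist of the bile acid receptor FXR, or its solvent DMSO. All groups shared the virus and a low glucose medium with 100 nM dexamethasone, a synthetic glucocorticoid. The 8 groups were shFOXA2.3 with glucagon and GW4064, shFOXA2.3 with glucagon and DMSO, shlacZ with glucagon and GW4064, shlacZ with glucagon and DMSO, and the same 4 with insulin in place of glucagon. Each had 3 arrays, 1 per experiment, 24 in all. No group went without a hormone, so a lower level under glucagon cannot be told apart from a higher level under insulin.

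Immediate-early genes are switched on within minutes of a signal, without new protein synthesis, and most of their mRNAs decay fast. Growth factors and insulin reach Egr1 and Fos through the ERK kinase route and the serum response factor SRF, which binds with a ternary complex factor of the ELK family. FOS and JUN proteins pair to form AP-1, which binds its own DNA site, and MYC pairs with MAX at the E-box. Glucagon acts on hepatocytes through cyclic AMP and protein kinase A, a route that switches on genes of glucose production such as Pck1. In liver these factors are best known from regeneration, when they mark the entry of hepatocytes into the cell cycle.

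Values are log2 levels as deposited, and a difference is glucagon minus insulin, GW4064 minus DMSO or shFOXA2.3 minus shlacZ on that scale. A gene is said to have changed where limma's adjusted p, over all 22180 genes, was below 0.05. Levels under 4 lie near the floor of the arrays, whose medians were 3.21 to 3.28. The hepatocyte markers had a median level of 10.01, and 9 of 11 macrophage, 8 of 10 stellate, 4 of 10 endothelial, 4 of 6 cholangiocyte and 9 of 9 lymphocyte markers averaged under 4. Foxa2 was lower with shFOXA2.3 in 12 of 12 pairs of arrays from 1 experiment, with an average difference of -0.43 (SE 0.0722, adjusted p = 0.0613, and 0.0194 with the experiment as a block). Pck1 averaged 9.57 ± 0.93 under glucagon and 3.53 ± 0.29 under insulin (SD, n = 12 each), as the hormone labels have it. The experiments differed in ways that did not go with the hormone. The mean level of 6 heat shock genes was 7.83 to 8.13 on the 8 arrays of experiment 3 and 6.66 to 7.04 on the 16 others. The endothelial marker mean was 4.88 to 5.03 on the 8 arrays of experiment 1 and 4.04 to 4.30 on the 16 others, and the stellate marker mean 3.85 to 4.03 and 3.58 to 3.78 in the same way. Experiment 3 also differed in 13 NF-kB target genes, whose mean level on its shlacZ arrays was 7.12 and 7.29 under glucagon and 6.68 and 6.55 under insulin, while all other arrays lay at 5.96 to 6.57 under glucagon and at 6.75 to 7.46 under insulin.

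Most of these genes had lower levels under glucagon than under insulin. Averaged over the 4 combinations of hairpin and drug, 7 of the 9 genes changed, all lower under glucagon: Egr1, Ier3, Junb, Myc, Jun, Jund and Egr2. Over all genes 16.2% changed in that comparison, 7.38% higher and 8.85% lower, and with the experiment as a block 24.6% did. These shares are the background for the list counts below. The median difference of the 9 genes was -0.60, beside 0.01 over all genes. Fos and Fosl2 missed the threshold, with adjusted p = 0.0913 and 0.136, and with the experiment as a block they passed it (adjusted p = 0.0357 and 0.0280). Without experiment 2 Fos passed as well (-0.44, adjusted p = 0.0118). Within a single combination 5 of 9 changed in shFOXA2.3 cells with DMSO (4.79% of all genes, 2.67% lower), 4 in shFOXA2.3 cells with GW4064 (3.49%, 2.12% lower), 3 in shlacZ cells with DMSO (4.68%, 2.98% lower) and 3 in shlacZ cells with GW4064 (3.09%, 1.8% lower). All of these were lower under glucagon. Egr1, Junb and Myc were the 3 that changed in all 4, always lower. For these 3 the 12 glucagon arrays also lay wholly below the 12 insulin arrays, a separation that 1.96% of all genes showed. These count 12 arrays of 3 cell pools, so the spread is between pools and treatments and not between single mice.

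**Figure D1:**
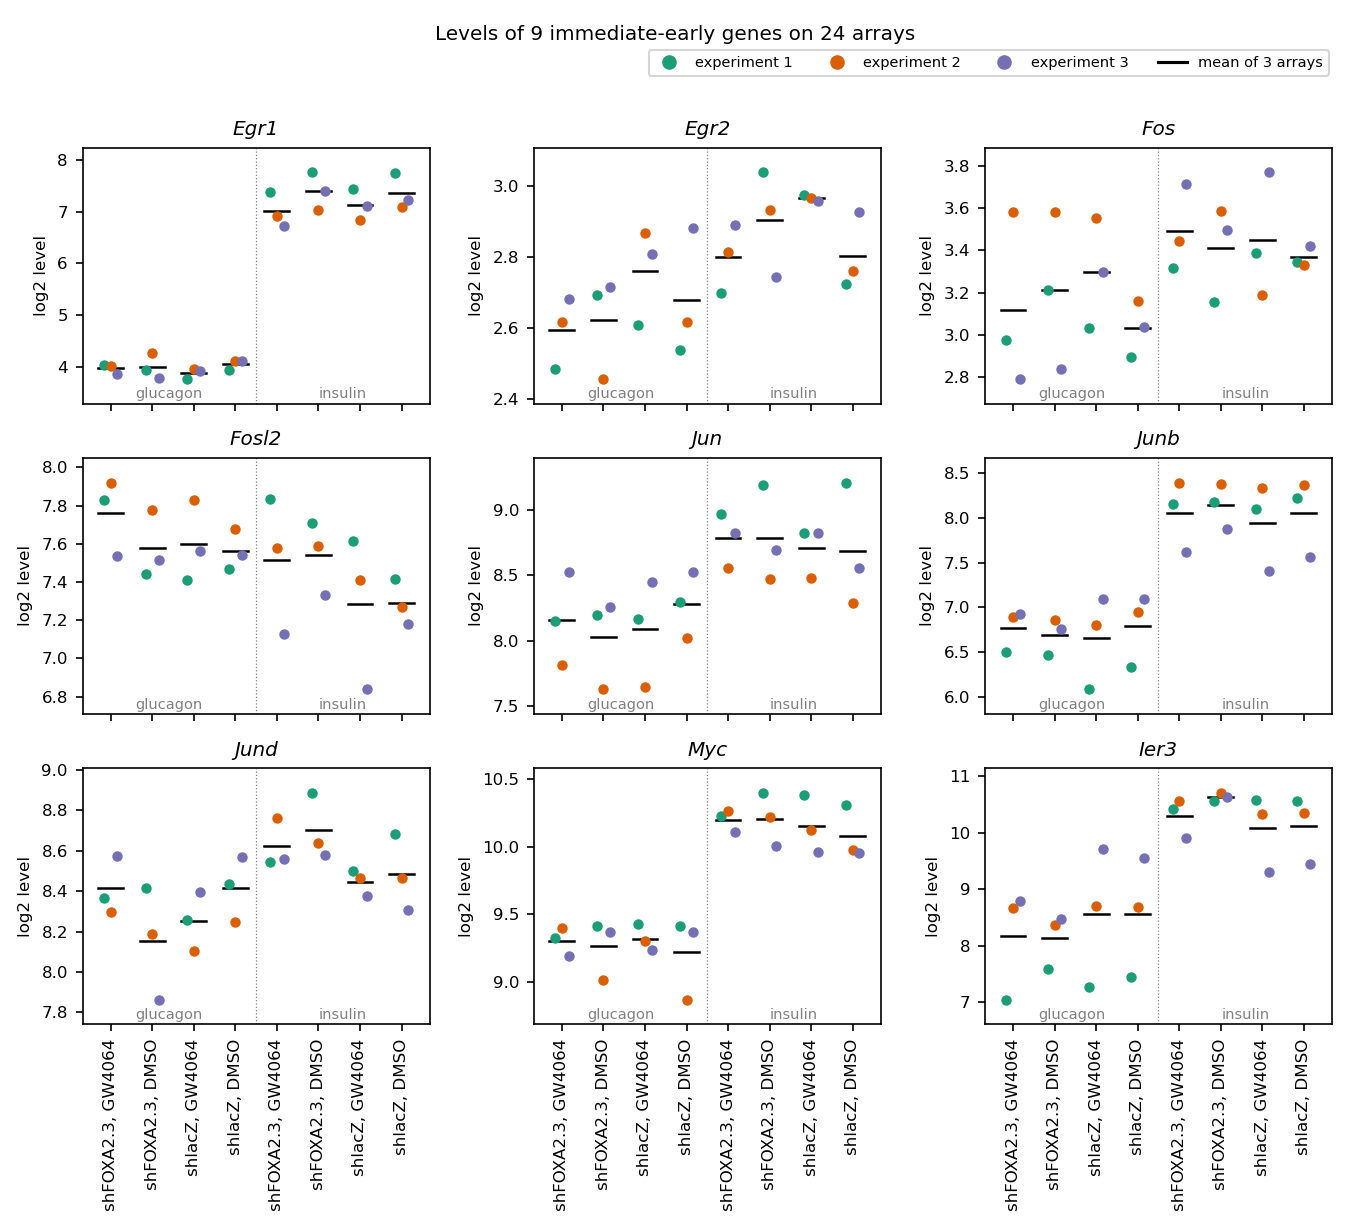
Log2 level (vertical axis, own scale per gene) of 9 genes on 24 arrays, by hairpin and drug, with the glucagon groups left of the dotted line and the insulin groups right of it; points are arrays coloured by experiment and bars are means of 3 arrays. Egr1, Junb and Myc show 2 separate bands, Ier3 shows bands that meet through the shlacZ arrays of experiment 3, and Egr2 and Fos stay under 4 on every array.

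Egr1 encodes a zinc finger transcription factor whose transcript is a standard readout of ERK signalling. Its level was 3.77 at the lowest, 3.95 at the median and 4.27 at the highest of 12 glucagon arrays, against 6.72, 7.16 and 7.76 over 12 insulin arrays. The glucagon arrays lay close to the level of 4 used here for the floor, 7 of them under it and 5 above, and the insulin arrays lay well above it, with a gap between the groups wider than either range. The difference was -3.24 (SE 0.0995, 95% interval -3.45 to -3.03, adjusted p = 1.26e-14), or 9.46-fold lower, and nearness to the floor can limit how large that fold reads. In the 4 combinations it was -3.40 in shFOXA2.3 cells with DMSO, -3.03 in shFOXA2.3 cells with GW4064, -3.30 in shlacZ cells with DMSO and -3.24 in shlacZ cells with GW4064. Every one of the 12 pairs ran the same way, at -3.82 to -2.76. The 3 cell pools averaged -3.65, -2.88 and -3.19, so the experiments differed far less than the hormones. Ordered by group mean, the 4 insulin groups came first, at 7.397, 7.35, 7.12 and 7.01, and neighbours within them overlapped. The glucagon groups followed at 4.06, 4.00, 3.97 and 3.88, again with overlapping neighbours, and the step between the 2 hormones was the single place where the ranges parted.

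Egr2, a close relative of Egr1 known from hindbrain and nerve development, stayed near the floor on every array. It ran from 2.46 to 2.88 with a median of 2.65 under glucagon, against 2.70 to 3.04 with a median of 2.91 under insulin. The ranges overlapped, although Egr2 was lower under glucagon in 12 of 12 pairs. The difference was -0.20 (SE 0.0525, adjusted p = 0.00878), and it missed the threshold without experiment 1 (-0.17, adjusted p = 0.144) and without experiment 2 (-0.19, adjusted p = 0.155). Of the single combinations none passed, and shFOXA2.3 with DMSO did with array weights (-0.36, adjusted p = 0.0471). Of 5 EGR relatives and NAB corepressors, proteins that bind EGR factors and dampen them, 1 was lower and 1 higher. Nab2 averaged 5.95 ± 0.19 under glucagon and 6.25 ± 0.14 under insulin (SD, n = 12 each; difference -0.30, adjusted p = 0.00316). Nab1 averaged 8.38 ± 0.14 under glucagon and 8.22 ± 0.08 under insulin (SD, n = 12 each; difference 0.16, adjusted p = 0.0108).

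**Figure D2:**
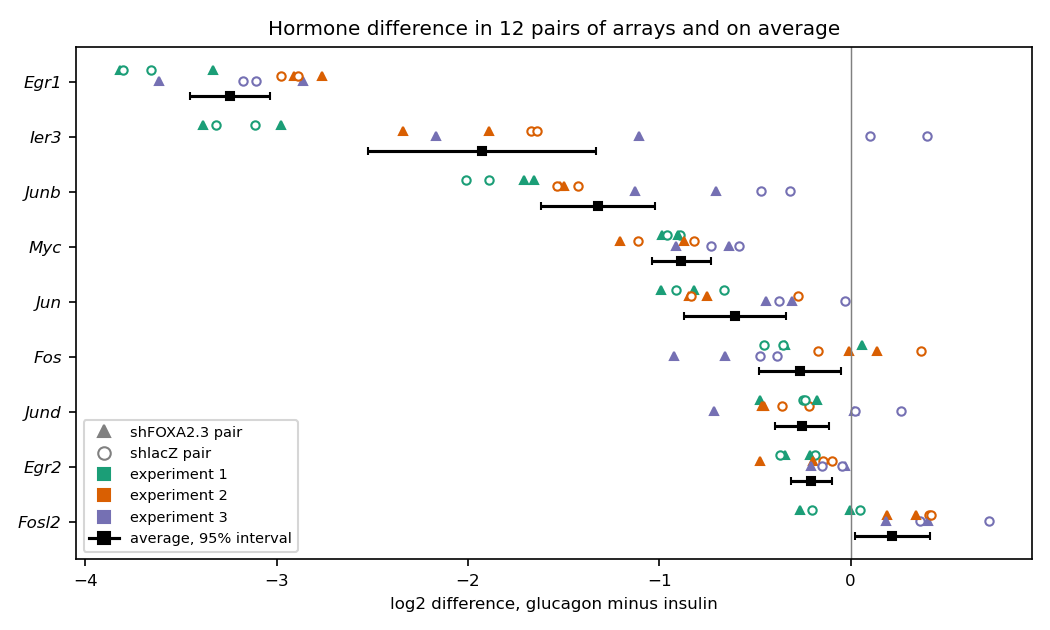
Difference in log2 level, glucagon minus insulin, for each of 12 pairs of arrays per gene; points are pairs, coloured by experiment and shaped by hairpin, black squares with bars are the average with its 95% interval, and the line at 0 marks no difference. Egr1 lies at -3.82 to -2.76, and Junb and Myc lie below 0 in every pair. Ier3 spreads from -3.38 to 0.40, with the shlacZ pairs of experiment 3 nearest 0.

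Among the AP-1 genes, those of the JUN family were lower under glucagon and Fos and Fosl2 were not called. Promoters are shown for Junb and Jun, which had the larger hormone differences of the JUN family, and for Fosl2, the FOS gene above the floor, whose difference had the other sign. The sequences are RefSeq's for build GRCm38.p6, 250 bases before to 50 after a start site, and 7 of the 10 genes had an entry. Capitals mark motif matches found on either strand. These were GGGCGG, the GC box, in 35.7% of the 32851 promoters of that length; TGACG, the core of the cyclic AMP response element, in 20.8%; TATAAA, the TATA box, in 13.6%; and the NF-kB site, in 4.51%. The full site TGACGTCA (1.79% of promoters), the AP-1 site TGANTCA (7.81%), the E-box CACGTG (7.15%) and the SRF-binding CArG box (1.63%) were searched too. They have no exact match in the 4 windows printed here. Near matches, such as TGACATCA in the Jun window, were not counted. Among windows not printed, Egr2 has CArG matches at several start sites, such as CCATATATGG, and an E-box at another. The Fos window holds TGACG at -129 and -66, an NF-kB match at -214, a GC box at -74 and TATAAA at -33. Egr1, Myc and Fosl1 had no entry.
Junb, chr8:84978699-84978998, minus strand: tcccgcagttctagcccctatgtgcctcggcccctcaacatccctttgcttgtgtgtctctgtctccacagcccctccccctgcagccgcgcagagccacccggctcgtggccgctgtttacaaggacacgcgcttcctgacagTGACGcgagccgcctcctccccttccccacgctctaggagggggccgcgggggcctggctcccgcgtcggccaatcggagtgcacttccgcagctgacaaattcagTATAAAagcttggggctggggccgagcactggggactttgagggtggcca
Jun, chr4:95052173-95052472, minus strand: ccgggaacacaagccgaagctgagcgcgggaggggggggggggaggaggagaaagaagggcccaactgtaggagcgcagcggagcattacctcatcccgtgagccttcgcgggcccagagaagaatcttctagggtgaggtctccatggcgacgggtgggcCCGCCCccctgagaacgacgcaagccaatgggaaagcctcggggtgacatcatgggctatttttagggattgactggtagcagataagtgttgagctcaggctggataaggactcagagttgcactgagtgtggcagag
Fosl2, chr5:32136222-32136521, plus strand: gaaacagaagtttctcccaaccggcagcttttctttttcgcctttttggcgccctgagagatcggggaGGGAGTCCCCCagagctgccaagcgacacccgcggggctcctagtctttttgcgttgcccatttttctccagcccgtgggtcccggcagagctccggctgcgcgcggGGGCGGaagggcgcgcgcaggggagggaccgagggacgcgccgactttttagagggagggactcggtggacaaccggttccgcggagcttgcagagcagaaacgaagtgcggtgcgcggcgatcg
In the Junb window TGACG starts at -106 from the start site and TATAAA at 1, its first base. The Jun window holds 1 GC box, at -89. The Fosl2 window holds a GC box at -75 and overlapping NF-kB matches on the 2 strands at -182 and -181. Each match is a description of letters and says nothing of which factor sits there.

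Junb encodes a JUN protein that can hold back c-JUN as well as act in AP-1 itself. It read 6.08 at the lowest, 6.83 at the median and 7.09 at the highest under glucagon, against 7.41, 8.16 and 8.39 under insulin. The lowest insulin array, shlacZ with GW4064 in experiment 3, was still above the highest glucagon array. The difference was -1.32 (SE 0.143, 95% interval -1.62 to -1.02, adjusted p = 8.92e-07), or 2.50-fold lower. It was -1.45 in shFOXA2.3 cells with DMSO, -1.28 in shFOXA2.3 cells with GW4064, -1.26 in shlacZ cells with DMSO and -1.29 in shlacZ cells with GW4064, with adjusted p = 0.00386, 0.0126, 0.0124 and 0.0131. The size varied with the cell pool, with means over 4 pairs of -1.82 (experiment 1), -1.49 (experiment 2) and -0.65 (experiment 3). In shlacZ cells of experiment 3 it averaged -0.39, and there the NF-kB target mean of the same arrays ran the other way; whether the 2 are linked was not tested. Without experiment 1 or without experiment 2 the call was lost in each single combination (differences -0.92 to -1.42, adjusted p = 0.0952 to 0.406), while the average over combinations passed in all 10 alternatives tried. In every combination but shFOXA2.3 with DMSO it was also lost without the insulin array of experiment 1, the glucagon array of experiment 1 or the insulin array of experiment 2 (-1.24 to -0.998, adjusted p = 0.0566 to 0.108).

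Jun, the c-JUN gene, ranged from 7.63 through a median of 8.18 to 8.53 under glucagon, against 8.29, 8.76 and 9.21 under insulin. The groups overlapped across experiments, with experiment 2 lowest under both hormones, but within an experiment Jun was lower under glucagon in 12 of 12 pairs. The difference was -0.60 (SE 0.128, 95% interval -0.87 to -0.34, adjusted p = 0.00178), or 1.52-fold lower, and without experiment 1 it was -0.48 (adjusted p = 0.0949). No single combination passed the threshold, at -0.76, -0.62, -0.41 and -0.62, although shFOXA2.3 with DMSO did with array weights (-0.96, adjusted p = 0.0383). With the experiment as a block, 3 of the 4 did: shFOXA2.3 with DMSO (adjusted p = 0.00134), shFOXA2.3 with GW4064 (0.00831) and shlacZ with GW4064 (0.00886), but not shlacZ with DMSO (0.0863).

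Jund, the JUN gene usually expressed in resting cells, had the smallest difference of its family. Its level ran from 7.86 through a median of 8.33 to 8.58 under glucagon, against 8.31, 8.55 and 8.89 under insulin, and the ranges overlapped. The average difference was -0.25 (SE 0.0671, adjusted p = 0.0108), lower in 9 of 12 pairs, with adjusted p = 0.106 without experiment 1 and 0.274 without experiment 2. In shFOXA2.3 cells with DMSO it was -0.55 (adjusted p = 0.0200), against -0.21, -0.07 and -0.19 elsewhere, where it was not called. In that combination the glucagon array of experiment 3 read 7.86, and without it the difference was -0.40 (adjusted p = 0.133), as it was -0.45 (0.121) without the insulin array of experiment 1. Leaving out any whole experiment also ended that call (-0.59 to -0.46, adjusted p = 0.0809 to 0.180). The second Jund probe set gave an average difference of -0.36 (SE 0.128, adjusted p = 0.0931 over probe sets).

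Fos, the c-FOS gene and the textbook immediate-early transcript, was near the floor throughout, at 2.79 to 3.58 under glucagon and 3.15 to 3.77 under insulin, with medians of 3.10 and 3.40. Its difference of -0.27 (SE 0.102) did not hold its sign between experiments, at -0.27, 0.08 and -0.61. Leaving out an experiment gave averages of -0.44 to -0.095. Fosl2, which encodes the longer-lived FRA2 protein, was well above the floor and was the only one of the 9 genes with a positive difference. It ran from 7.41 through 7.55 to 7.92 under glucagon, against 6.84, 7.41 and 7.83 under insulin, and was higher under glucagon in 9 of 12 pairs. The difference of 0.22 (SE 0.0929, 95% interval 0.02 to 0.41) came with means of -0.10, 0.34 and 0.42 for experiments 1, 2 and 3.

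Of 12 measured partners with which JUN and FOS proteins form dimers, 4 were lower and none higher under glucagon, with a median of -0.07. Atf3, a stress-induced repressor, averaged 7.40 ± 0.66 under glucagon and 9.21 ± 0.47 under insulin (SD, n = 12 each; difference -1.81, adjusted p = 1.01e-05). Mafk, a small MAF protein, averaged 6.26 ± 0.25 under glucagon and 7.38 ± 0.22 under insulin (SD, n = 12 each; difference -1.12, adjusted p = 2.14e-08). Maff, another small MAF, differed by -0.45 (adjusted p = 0.00180), and Atf7, a relative of ATF2, was the fourth at -0.39 (adjusted p = 0.00726). Genes that AP-1 is known to drive were split, with 2 of 11 lower and 1 higher, beside 8.85% and 7.38% of all genes. Plaur, the urokinase receptor, averaged 7.77 ± 0.17 under glucagon and 9.44 ± 0.29 under insulin (SD, n = 12 each; difference -1.67, adjusted p = 2.15e-10). Lif, a cytokine, differed by -1.42 (adjusted p = 0.000178), with a glucagon mean of 3.51 near the floor, and Hmox1, heme oxygenase, by 1.08 (adjusted p = 3.91e-05). With the experiment as a block 4 of the 11 were lower, Ccnd1, a cyclin, at -0.50 and Cd44, a hyaluronan receptor, at -0.38 being added. The block called 24.6% of all genes.

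Myc encodes the E-box factor that drives growth and ribosome genes. Its level was 8.87 at the lowest, 9.35 at the median and 9.42 at the highest under glucagon, against 9.96, 10.17 and 10.40 under insulin. The groups did not overlap, and each was narrow. The difference was -0.88 (SE 0.0747, 95% interval -1.04 to -0.73, adjusted p = 3.04e-08), or 1.85-fold lower. The combinations gave -0.94, -0.90, -0.86 and -0.84, and the experiments -0.93, -1.001 and -0.72. Leaving out an experiment ended the call of Myc in 2 single combinations, in shlacZ cells with DMSO without experiment 2 (-0.74, adjusted p = 0.0697) and in shlacZ cells with GW4064 without experiment 1 (-0.77, adjusted p = 0.0803). Between neighbouring group means the ranges parted only between the hormones, where shlacZ with insulin and DMSO, at 10.08, stood next to shlacZ with glucagon and GW4064, at 9.32.

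In the MYC and MAX network 3 of 12 genes were higher and 1 was lower under glucagon. The 3 that were higher, Mnt, Mxi1 and Mxd4, and the 1 that was lower, Mga, all encode proteins that can pair with MAX. Mnt averaged 5.60 ± 0.24 under glucagon and 4.73 ± 0.30 under insulin (SD, n = 12 each; difference 0.87, adjusted p = 8.30e-06). Mxi1 averaged 6.93 ± 0.16 under glucagon and 6.17 ± 0.15 under insulin (SD, n = 12 each; difference 0.76, adjusted p = 5.58e-09). Mxd4 differed by 0.44 (adjusted p = 0.0136), and Mga, which carries both a MYC-type and a T-box DNA-binding region, was the one that was lower (difference -0.23, adjusted p = 0.00547). With the experiment as a block, which called 24.6% of all genes, 5 were higher and 3 lower. Mxd1 at 0.21 and Mlxipl, a glucose-responsive factor, at 0.20 were added to the higher ones. Max itself at -0.18 and its relative Mlx at -0.20 were added to the lower ones. Of 14 MYC target genes 2 were higher and 3 lower, which gives no single direction, beside 7.38% and 8.85% of all genes. Odc1, the rate-limiting enzyme of polyamine synthesis, was higher by 0.46 (adjusted p = 0.000585) and Cdk4 by 0.38 (adjusted p = 0.000592), while Nop58, a nucleolar RNA-modification protein, differed by -0.43 (adjusted p = 4.11e-05). Also lower were Tfrc, the transferrin receptor, at -0.22 and Ncl, nucleolin, at -0.13. Under the block, which called 24.6% of all genes, 5 targets were lower. The cyclin Ccnd2 at -0.29 and the nucleolar protein Nop56 at -0.18 were added.

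Ier3 encodes a small protein tied to cell survival, and NF-kB as well as ERK can induce it. Its promoter is shown because it holds 1 NF-kB match and Ier3 is set beside NF-kB targets in what follows. The windows of Fos and Fosl2 hold NF-kB matches as well, and these 2 genes missed the threshold in the average hormone comparison without the block.
Ier3, chr17:35821463-35821762, plus strand: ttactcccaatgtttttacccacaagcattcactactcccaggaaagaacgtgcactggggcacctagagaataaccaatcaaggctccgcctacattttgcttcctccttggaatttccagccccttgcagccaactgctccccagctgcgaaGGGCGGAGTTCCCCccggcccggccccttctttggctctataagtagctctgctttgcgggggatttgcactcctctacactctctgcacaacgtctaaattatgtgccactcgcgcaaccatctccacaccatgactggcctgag
The capitals cover a GC box that starts at -96 and an NF-kB match on the minus strand that starts at -92, so the 2 share letters.

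Ier3 read 7.04 at the lowest, 8.57 at the median and 9.71 at the highest under glucagon, against 9.31, 10.49 and 10.70 under insulin. The groups met only through the shlacZ arrays of experiment 3, which read 9.55 and 9.71 under glucagon and 9.45 and 9.31 under insulin. The average difference was -1.93 (SE 0.286, 95% interval -2.52 to -1.33, adjusted p = 4.42e-05), or 3.80-fold lower, with 10 of 12 pairs lower. It was called in shFOXA2.3 cells, at -2.49 with DMSO (adjusted p = 0.0120) and -2.13 with GW4064 (0.0428), and not in shlacZ cells, at -1.56 with DMSO (0.152) and -1.52 with GW4064 (0.215). Without experiment 3 the shlacZ differences were -2.39 (adjusted p = 0.0272) and -2.48 (0.0267). The 2 shFOXA2.3 calls were lost without the glucagon array of experiment 1 (-2.22, adjusted p = 0.0612, with DMSO and -1.56, adjusted p = 0.256, with GW4064). The call with GW4064 was also lost without any of 4 other single arrays, the insulin arrays of the 3 experiments and the glucagon array of experiment 2 (-2.38 to -1.99, adjusted p = 0.0527 to 0.164). Leaving out all arrays of experiment 2 ended both calls (-2.57, adjusted p = 0.234, and -2.24, adjusted p = 0.403), and leaving out experiment 1 ended the one with GW4064 (-1.50, adjusted p = 0.210). Ordered by mean, the insulin groups stood at 10.63, 10.30, 10.12 and 10.07 and the glucagon groups at 8.56, 8.55, 8.17 and 8.14. Neighbours overlapped even across the hormones and parted only between the first, shFOXA2.3 with DMSO, and the second. The difference between the hairpins in the hormone response, -0.77 (SE 0.571, 95% interval -1.96 to 0.42), did not pass the threshold.

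Ier3 and the mean of 13 NF-kB targets, a list that does not hold Ier3, had the same sign in all 12 pairs. In shFOXA2.3 cells with DMSO the Ier3 differences of experiments 1 to 3 were -2.98, -2.34 and -2.16, beside -1.17, -1.31 and -1.26 for the NF-kB mean. In shFOXA2.3 cells with GW4064 they were -3.38, -1.89 and -1.11, beside -1.09, -0.97 and -0.18. In shlacZ cells with DMSO they were -3.11, -1.67 and 0.10, beside -1.18, -1.18 and 0.45. In shlacZ cells with GW4064 they were -3.32, -1.64 and 0.40, beside -1.18, -0.83 and 0.74. The 2 pairs in which Ier3 was higher under glucagon were the 2 in which the NF-kB mean was higher. Of the 13 targets 9 were lower under glucagon on average and 1 was higher, with a median of -0.57. Within single combinations 7 were lower in shFOXA2.3 cells with DMSO, beside 2.67% of all genes. In shFOXA2.3 cells with GW4064, shlacZ cells with DMSO and shlacZ cells with GW4064 only 1 was lower each (2.12%, 2.98% and 1.8% of all genes). In each combination 1 was higher. Cxcl1, a neutrophil-attracting chemokine, averaged 5.89 ± 1.33 under glucagon and 7.86 ± 0.55 under insulin (SD, n = 12 each; difference -1.98, adjusted p = 0.00155). Cxcl2, a related chemokine, differed by -1.71 (adjusted p = 0.00287), Icam1, an adhesion molecule, by -1.57 (adjusted p = 6.76e-05) and Bcl3, a nuclear NF-kB cofactor and the gene that was higher, by 0.80 (adjusted p = 1.15e-07). Under the block Traf1, near the floor, was added to the lower ones at -0.20. What part NF-kB activity had in the Ier3 values was not tested.

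**Figure D3:**
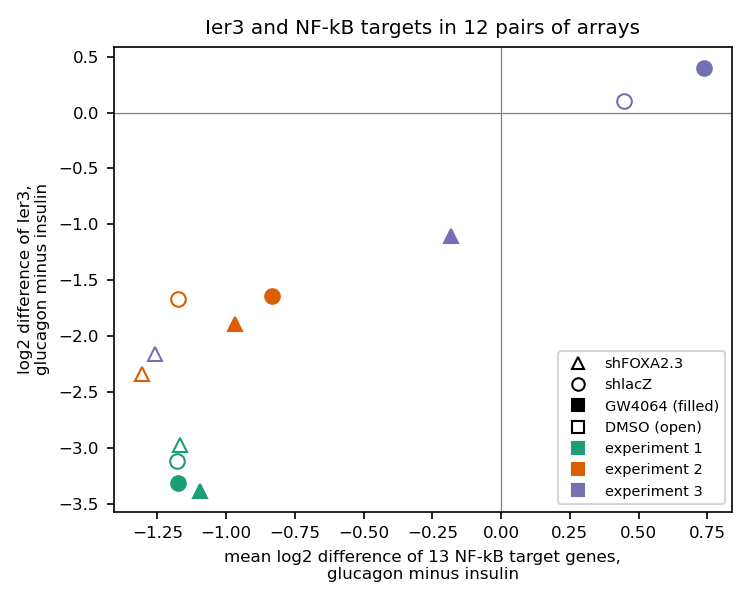
Ier3 difference (vertical axis) against the mean difference of 13 NF-kB targets (horizontal axis), both glucagon minus insulin in log2, for 12 pairs of arrays; colour marks the experiment, shape the hairpin and fill the drug. The 2 shlacZ pairs of experiment 3 lie alone at the upper right, at 0.45 and 0.10 and at 0.74 and 0.40.

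Upstream of these genes, 14 of the 21 listed genes of the ERK, JNK and p38 kinase route were measured. The 14 were split, with 3 higher and 3 lower under glucagon. The shares over all genes were 7.38% higher and 8.85% lower. Map2k3, the kinase that activates p38, averaged 8.18 ± 0.22 under glucagon and 9.42 ± 0.14 under insulin (SD, n = 12 each; difference -1.24, adjusted p = 1.27e-10). Map2k1, which encodes the ERK-activating kinase MEK1, differed by 0.44 (adjusted p = 0.000307), and Rps6ka5, near the floor, by 0.31 (adjusted p = 0.00482). The others past the threshold were Egfr, the EGF receptor, at 0.31, Rps6ka3 at -0.21 and Map2k4, a JNK-activating kinase, at -0.19. Of 7 genes for SRF and its cofactors 1 was lower and 2 were higher. Srf itself averaged 7.19 ± 0.42 under glucagon and 8.02 ± 0.40 under insulin (SD, n = 12 each; difference -0.83, adjusted p = 0.00176), while the ternary complex factor genes Elk1 and Elk4 differed by 0.61 (adjusted p = 0.00116) and 0.44 (adjusted p = 0.00347). Under the block, which called 24.6% of all genes, 3 of the 7 were lower. Elk3, near the floor, at -0.18 and Mrtfb, an actin-regulated SRF cofactor, at -0.18 were added. Map2k2, which encodes MEK2, was added to the higher genes of the kinase route at 0.22.

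Other immediate-early genes split into a larger group that was lower under glucagon and a smaller one that was higher. Of 19 measured, 11 were lower and 4 higher, with a median of -0.81. Rrad, a small GTPase, averaged 3.78 ± 0.32 under glucagon and 7.03 ± 0.73 under insulin (SD, n = 12 each; difference -3.25, adjusted p = 3.78e-09). Its glucagon mean lies near the floor, where differences can read smaller than they are. Phlda1, a growth-regulating pleckstrin-homology protein, differed by -2.56 (adjusted p = 2.52e-08) and Ier2 by -1.97 (adjusted p = 7.99e-11). The 4 that were higher were Gadd45g at 1.29, Sgk1 at 1.16, Pim1 at 0.87 and Errfi1, a feedback inhibitor of the EGF receptor, at 0.31. Genes that cyclic AMP is known to induce ran the other way, with 8 of 9 higher and none lower. Nr4a3, an orphan nuclear receptor that is itself an immediate-early gene, averaged 8.09 ± 0.25 under glucagon and 2.71 ± 0.17 under insulin (SD, n = 12 each; difference 5.38, adjusted p = 3.33e-20). G6pc, the glucose-6-phosphatase gene, differed by 5.16 (adjusted p = 2.35e-12), with an insulin mean of 3.22, so both genes were near the floor under insulin.

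**Figure D4:**
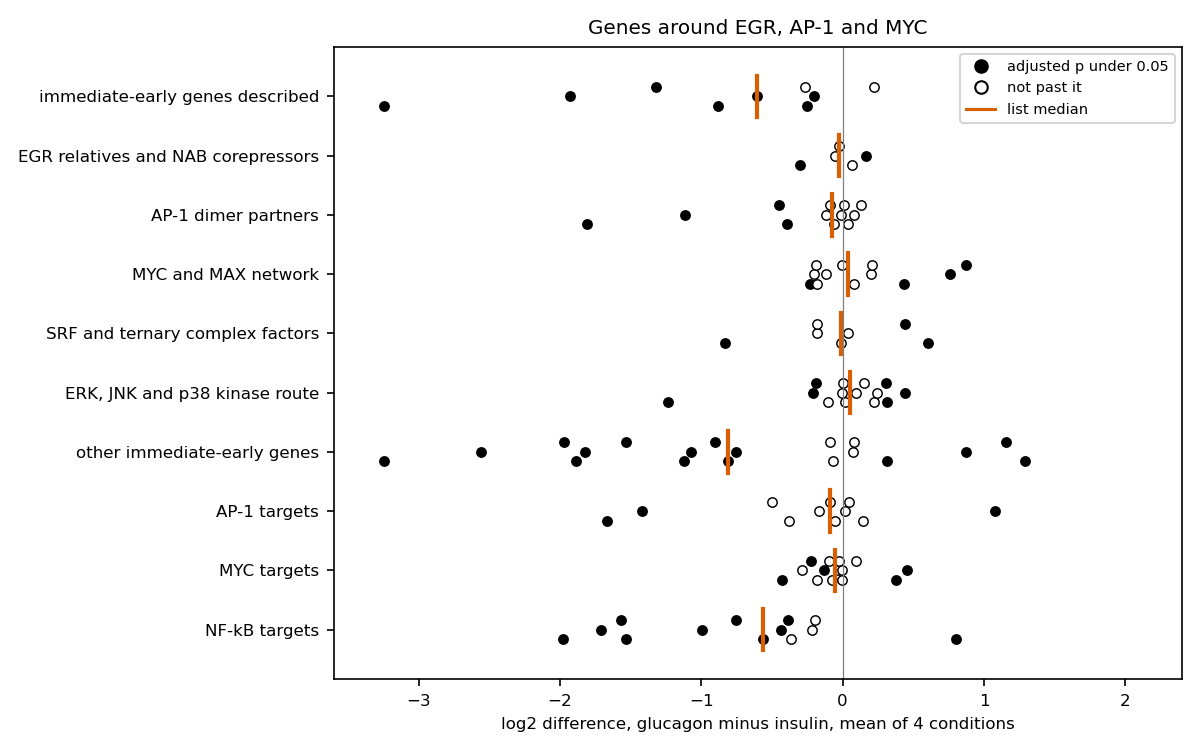
Difference in log2 level, glucagon minus insulin, averaged over 4 combinations of hairpin and drug, for each measured gene of 10 lists; filled points passed an adjusted p of 0.05, open points did not, and the vertical bar is the list median. The 9 immediate-early genes described here and the 19 other immediate-early genes have medians of -0.60 and -0.81, the NF-kB targets -0.57, and the other lists lie between -0.09 and 0.06.

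Markers of the cell types that such cultures can hold were compared in the same way. Of 10 hepatocyte markers 4 were higher under glucagon and none lower, with Tat, a tyrosine-degrading enzyme that glucagon induces, at 2.99 (adjusted p = 3.46e-08), Cps1, a urea cycle enzyme, at 1.10 (0.0410), Hnf4a at 0.97 (6.67e-05) and Ttr at 0.27 (0.0270). Of the cholangiocyte markers Sox9 was lower, at 6.58 ± 0.68 under glucagon and 7.78 ± 0.34 under insulin (SD, n = 12 each; difference -1.20, adjusted p = 0.000456), with the list mean at 3.58 to 3.79 under glucagon and 3.78 to 4.27 under insulin. Of the stellate markers Dcn was higher by 0.35 (adjusted p = 0.0252), and no macrophage, endothelial or lymphocyte marker was called. With the experiment as a block 1 macrophage marker, Cd68 at 0.24, and 1 endothelial marker, Cdh5 at 0.16, were higher. So were 4 stellate markers (Lrat, Reln and Rgs5, all near the floor, added at 0.19, 0.25 and 0.18). Also higher were 6 hepatocyte markers (Apoc3 and Ass1 added at 0.28 and 0.39), while 2 cholangiocyte markers were lower (Krt19 added at -0.53). The block called 24.6% of all genes. The endothelial list mean ran from 4.04 to 5.03 under glucagon and from 4.06 to 5.02 under insulin, the values above 4.30 all being from experiment 1. Heat shock genes, 2 of 6 higher and none lower, had list means of 6.73 to 8.13 under glucagon and 6.66 to 7.98 under insulin, the values above 7.04 all being from experiment 3. Hsph1 differed by 0.52 (adjusted p = 0.0307) and Hspa8 by 0.11 (adjusted p = 0.0407), and Dnajb1 passed with the block at 0.15. Experiment 1, with the high endothelial and stellate means, had the largest mean hormone differences of Ier3, Junb and Jun, at -3.20, -1.82 and -0.85. Experiment 3, with the high heat shock mean, had the smallest, at -0.69, -0.65 and -0.29. These are means over both hairpins, which differed within experiment 3. There Ier3 stood at -1.64 with shFOXA2.3 and 0.25 with shlacZ, Junb at -0.91 and -0.39, and Jun at -0.37 and -0.20. Egr2, near the floor, had the same order of experiments, at -0.28, -0.23 and -0.11 for experiments 1, 2 and 3. The other genes had other orders, with Egr1 at -3.65, -2.88 and -3.19 and Myc at -0.93, -1.001 and -0.72. Jund stood at -0.28, -0.37 and -0.10, Fos at -0.27, 0.08 and -0.61 and Fosl2 at -0.10, 0.34 and 0.42. On average over combinations Ier3 differed by -1.29 without experiment 1 and by -2.54 without experiment 3, Junb by -1.07 and -1.65, and Jun by -0.48 and -0.76, and Jun without experiment 1 was the one of these 6 values that missed the threshold. The part of other cells or of stress in the values of the 9 genes was not tested, and in cultures fewer cells of a type and less RNA per cell cannot be told apart.

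GW4064 changed none of the 9 genes under either hormone, and no gene of the 22180 passed the threshold (0% background under insulin and under glucagon). At an unadjusted p below 0.05 limma had 555 genes (2.50%) under insulin and 786 (3.54%) under glucagon. Of the 9 genes, Egr1 was the only one among these under insulin, and none was under glucagon. With the experiment as a block limma called 2 genes under each hormone. Egr1 came nearest. Under insulin it was lower with GW4064 in 6 of 6 pairs, by -0.68 to -0.11, with group means of 7.01 ± 0.34 with GW4064 and 7.397 ± 0.364 with DMSO in shFOXA2.3 cells, and of 7.12 ± 0.30 with GW4064 and 7.35 ± 0.34 with DMSO in shlacZ cells (SD, n = 3 each). The ranges of these groups overlapped, and the difference of -0.31 (SE 0.141, 95% interval -0.61 to -0.02) had an adjusted p of 1.00. The 6 pairs under insulin came from 3 pools, and how many of all genes had 6 of 6 one way was not counted. Under glucagon, near the floor, the Egr1 difference was -0.10 (95% interval -0.39 to 0.19). The drug response did not differ between hormones beyond its error for Egr1, at 0.21 (SE 0.199, 95% interval -0.20 to 0.63). For Junb the interval was -0.52 to 0.33 under insulin and -0.45 to 0.40 under glucagon, for Myc -0.19 to 0.25 and -0.15 to 0.29, and for Jun -0.37 to 0.39 and -0.41 to 0.35. Ier3 was measured least tightly, with -1.03 to 0.65 under insulin and -0.83 to 0.86 under glucagon.

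The FOXA2 hairpin changed none of the 9 genes either, averaged over hormone and drug, in a comparison with 2 called genes (0.00902%) at 1376 with an unadjusted p below 0.05. The average differences ran from -0.07 for Egr2 to 0.16 for Fosl2 (SE 0.0929, 95% interval -0.03 to 0.36). Under insulin 0.00451% of all genes changed and 0 of the 9 did. Of the 9, 2 were higher with shFOXA2.3 in 6 of 6 pairs, which came from 3 pools. How many of all genes had 6 of 6 pairs one way was not counted. Fosl2 differed there by 0.24 (95% interval -0.04 to 0.51, adjusted p = 0.848) and Jund by 0.20 (95% interval -0.0020 to 0.39, adjusted p = 0.777), and neither passed. Under glucagon Fosl2 was higher in 3 of 6 pairs and Jund in 3 of 6. Ier3 differed by 0.37 under insulin (95% interval -0.48 to 1.21) and by -0.40 under glucagon (95% interval -1.25 to 0.44), with the shlacZ arrays of experiment 3 behind the widest pairs, 1.18 under insulin and -1.08 under glucagon. Foxa2 itself had mean hairpin differences of -0.51, -0.66 and -0.12 over the pairs of experiments 1, 2 and 3. Its average change with the hairpin was -25.9%, so the values above describe a partial lowering of Foxa2. The hormone difference of Foxa2 was larger, at 1.19 (limma, adjusted p = 2.15e-10). With shFOXA2.3 under glucagon Foxa2 averaged 6.90 (GW4064) and 7.02 (DMSO). With shlacZ under insulin it averaged 6.14 (GW4064) and 6.27 (DMSO).

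**Figure D5:**
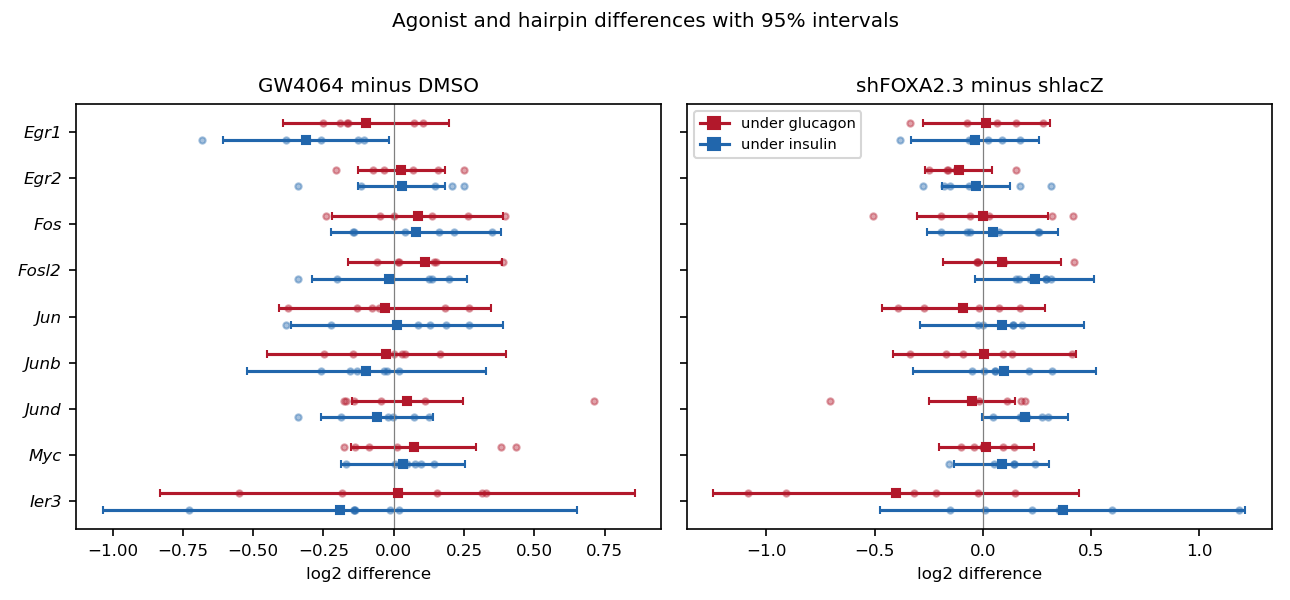
Differences in log2 level of 9 genes, GW4064 minus DMSO at the left and shFOXA2.3 minus shlacZ at the right, under glucagon (red) and under insulin (blue); squares with bars are limma estimates with 95% intervals and small points are 6 pairs each. Egr1 under insulin with GW4064, at -0.31, has the one interval that leaves out 0, and the Ier3 bars are the widest.

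No interaction was called for any of the 9 genes, nor for any of the 22180 genes (0% for hormone by drug, for hormone by hairpin and for drug by hairpin; 584, 921 and 705 genes at an unadjusted p below 0.05, and 0 with the experiment as a block). The hormone response of Jund differed between shFOXA2.3 and shlacZ by -0.25 (SE 0.134, 95% interval -0.53 to 0.03). For Egr1 the same value was 0.05 (95% interval -0.36 to 0.47), for Junb -0.09 (-0.69 to 0.51) and for Myc -0.07 (-0.38 to 0.24).

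The 9 genes also differed in how they varied together over the 24 arrays, which fall into 2 hormone clusters, so the coefficients mainly describe a shared hormone difference. Pearson's r was 0.95 between Junb and Ier3, 0.93 between Egr1 and Myc and 0.90 between Egr1 and Junb, and it was -0.38 between Egr1 and Fosl2. Among 9034 other genes with a mean level of 4 or more, those most like Egr1 were Rin1, a RAS effector, and Angptl4, a lipoprotein lipase inhibitor, both at 0.98. Junb was nearest to Ankrd1 and Rrad, both at 0.97, and Myc to Crcp at 0.97 and Daam1 at 0.96. Jun was nearest to Btg2 and Ccdc120, both at 0.91, and Jund to Fzr1 at 0.88 and Nop2 at 0.85. Ier3 was nearest to the NF-kB regulated genes Tnfaip3 at 0.97 and Icam1 at 0.96, both also in the list of NF-kB targets. Fosl2 had the loosest neighbours, Psme1 at 0.83 and Ski at 0.79.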

How the data were processed

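Labelled single-stranded DNA from 300 ng of total RNA was hybridised to Affymetrix MoGene 2.0 ST arrays and processed with GeneSpring, with 3 technical replicates pooled per sample, per the labels and the series' design text. The authors deposited log2 values for 41345 probe sets, 1.46 to 13.5; background correction and normalization (methods not given in the sources used here) were the authors'. Of these probe sets 23521 had 1 gene symbol, 1814 several and 16010 none, and the highest mean stood for a gene with several probe sets. Precision is limited by the number of arrays.

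The log2 values were fitted with limma (version 3.58.1, under R 4.3.3), with 1 mean per group over 24 arrays (16 residual degrees of freedom) and Benjamini-Hochberg adjustment over 22180 genes. Intervals are 95% intervals. The procedure was tested on simulated data with independent noise on each array. That noise had no part shared by the arrays of a pool, so the effect of such sharing was not checked. Same-numbered experiments came from one pool of cells and their arrays deviated together (84 of 84 pairs, r 0.374 to 0.698), so the fit with the experiment as a block is given where it changes a call of the 9 genes or a list's counts in the average hormone comparison. The p-values measure the spread of arrays within groups, 1 array per pool, and count the 24 arrays as independent. In averages over the 4 combinations each of the 3 pools counts 4 times. Pool differences in the hormone response, such as means over both hairpins of -3.20, -1.89 and -0.69 for Ier3, are not weighed as 3 values. So these p-values can overstate the certainty that 3 pools give.

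The members, gene lists and tests were chosen with earlier results of these data known. From each list up to 3 called genes with the largest average hormone difference were named, and for each member above a mean level of 4 the 2 genes of highest Pearson correlation; Atf7, Mga, Tfrc, Ncl, Bcl3, Egfr, Rps6ka3, Map2k4, Gadd45g, Sgk1, Pim1, Errfi1, Ttr and the genes called only with the block were named after their values were seen. Promoters came from RefSeq's GRCm38.p6. Alternatives were median centring, quantile normalization, a filter on low values, the mean of probe sets, a trended robust prior, array weights and the block. An experiment was also left out, and for the hormone within a single combination an array.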

Additional observations from a re-analysis of the deposited data

Results flagged for a closer look

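A few small differences ran one way in all 3 pairs of one condition and the other way in all 3 pairs of another. In none of them was the difference between the conditions tested by itself, and none of the 9 genes passed the threshold for the hairpin, the drug or an interaction. With the FOXA2 hairpin Jund differed by 0.22 under insulin with DMSO, by 0.18 under insulin with GW4064 and by 0.16 under glucagon with GW4064, against -0.26 under glucagon with DMSO, where the single array of experiment 3 gave a pair at -0.71. The hairpin difference of Ier3 was 0.51 under insulin with DMSO and -0.38 under glucagon with GW4064. For Jun it was 0.075 under insulin with GW4064 and -0.25 under glucagon with DMSO. The GW4064 difference of Junb was 0.078 in shFOXA2.3 cells under glucagon and -0.11 in shlacZ cells under insulin.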

How the results depend on the processing

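Leaving out one experiment or array moved the counts of called genes among the 9 in the single combinations. In shFOXA2.3 cells the count went from 5 to between 2 and 5 with DMSO and from 4 to between 2 and 4 with GW4064. In both shlacZ combinations it went from 3 to between 1 and 4. Leaving out one experiment moved the average count from 7 to between 4 and 7. The lowest average count came without experiment 1, and fewer arrays are part of that setting. The replicate block, with the experiment as the paired unit, gave 6, 5, 3 and 4 called genes of the 9 in the 4 combinations in that order and 9 on average, and it changed no call among the 9 other than those of Jun, Fos and Fosl2 given above. Over all genes the average count of 3600 ranged from 2018 without experiment 1 to 5454 with the block, and the single combinations (1062, 775, 1039 and 686) from 362, 181, 297 and 174 to 2500, 2027, 2481 and 1865 under the same 2 settings. The hairpin count of 2 ranged from 0 to 17 and the GW4064 counts of 0 up to 2. No other planned setting moved such a count by over 1.5 times, and Egr1, Junb, Myc and Ier3 stayed called on average in all 10 alternatives. Jund lost its call in shFOXA2.3 cells with DMSO with the mean of probe sets (-0.54, adjusted p = 0.0820), and Ier3 in shFOXA2.3 cells with GW4064 with the trended robust prior (-2.13, adjusted p = 0.0793). Array weights added calls of Jun (-0.96, adjusted p = 0.0383) and Egr2 (-0.36, adjusted p = 0.0471) in shFOXA2.3 cells with DMSO. Small differences turned sign without passing the threshold, and the cause was not tested: under GW4064 and insulin Fosl2 was 0.0091 with quantile normalization and 0.0024 with array weights, and Jun -0.0014 with median centring and -0.053 with array weights; under GW4064 and glucagon Jun was 0.013 with array weights and Jund -0.025 with the mean of probe sets; for the hairpin Egr1 was 0.052 and Jun 0.043 with array weights. Single arrays were left out only for the hormone within a combination. Leaving out an experiment or, there, an array turned the sign of differences near 0, none of them past the threshold. Their ranges were for the hormone in shFOXA2.3 cells with DMSO Fos -0.39 to 0.026, Fosl2 -0.068 to 0.19, for the hormone in shlacZ cells with DMSO Jund -0.23 to 0.032, for the hormone in shlacZ cells with GW4064 Fos -0.41 to 0.0087. They were for GW4064 under insulin Egr2 -0.00085 to 0.066, Fos -0.021 to 0.19, Fosl2 -0.10 to 0.11, Jun -0.083 to 0.17, Jund -0.12 to 0.043. They were for GW4064 under glucagon Egr2 -0.062 to 0.075, Jun -0.094 to 0.0019, Junb -0.081 to 0.015, Jund -0.063 to 0.13, Myc -0.099 to 0.18, Ier3 -0.10 to 0.20, and for the hairpin on average Egr1 -0.048 to 0.062, Fos -0.086 to 0.12, Jun -0.0074 to 0.0055, Myc -0.0011 to 0.098, Ier3 -0.054 to 0.0026. Levels near the floor limit what can be seen for Egr2, Fos and, under glucagon, Egr1.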

Other observations

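The 1 probe set for Fosl1, which encodes the AP-1 protein FRA1, is paired in the platform table with both Ccdc85b and Fosl1, so which of the 2 genes it measures cannot be told apart. It read 5.82 to 7.41 under glucagon, with a mean of 6.46, against 8.49 to 9.44 under insulin, with a mean of 8.92. The ranges did not overlap, and all 12 pairs were lower under glucagon, at -3.59 to -1.15. The average difference was -2.46 (SE 0.215, limma with Benjamini-Hochberg adjustment over all probe sets, adjusted p = 1.27e-07). The 4 pairs of experiment 3 lay at -1.80 to -1.15 and the 8 pairs of the other experiments at -3.59 to -2.37. Experiment 3 also had the smallest mean hormone difference of Junb and Ier3, though its Ier3 pairs ran from -2.16 to 0.40.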
